A study of Mus musculus with 36 samples.

Results

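The alternative activation markers described here are 7 mouse genes: Il4ra, Klf4, Arg1, Retnla, Mrc1, Clec10a and Mgl2. They were taken from a bead array table as every feature whose gene name, ignoring case, was that of a listed gene. That rule found 10 features for 6 of the 7 genes, out of 45281 features on the array, which fall under 28918 gene names. Clec10a had no feature under its present symbol. A feature under its older symbol Mgl1, defined on the array as the galactose and N-acetylgalactosamine lectin of macrophages numbered 1, was added after the rule had been applied, which gave 11 features for 7 genes. Mgl1 is also an older name of Llgl1, and it was the array's definition that assigned this feature to the lectin. Mrc1 was detected on all 36 arrays and showed no difference past the threshold in any comparison. Clec10a was lower in crystal-loaded wild-type macrophages than in untreated ones and was the only member with such a difference. With crystals alone it passed narrowly (limma adjusted p = 0.0494), in a comparison where 14% of all genes passed. It passed there in 7 of 19 alternative analyses. On the slides that held both genotypes, with fewer wt arrays, it was also lower and did not pass. In dko cells the Clec10a means were lower with crystals or CD too, and none passed in the fit described. Arg1 and Retnla stayed at or near background.

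Macrophages grown from the bone marrow of C57BL/6 mice aged 2 to 5 months with M-CSF, the growth factor that drives macrophage outgrowth, were profiled by total RNA on 36 Illumina arrays. The dko mice were double knockouts of LXRα and LXRβ, the liver X receptors, and the wt mice carried both genes. Within each genotype, cells received cholesterol crystals for 3 h followed by 10 mM cyclodextrin (CD, a cyclic sugar that takes up cholesterol) for 4 h after the excess crystals had been washed off, crystals alone, CD alone, or neither (untreated). The 4 dko groups held 4 arrays each and the 4 wt groups held 5 each. The labels name no IL-4 or IL-13 treatment. Array numbers run from 6 to 9 in dko and from 1 to 5 in wt groups, and what a number stands for (mouse, culture or date) is not stated. A p-value here thus reflects only how far arrays of a group scatter, which could be technical scatter. The hypothesis given with the series was that CD acts on macrophage genes by activating LXR.

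Alternative activation is the state that IL-4 and IL-13 induce in macrophages. Both cytokines bind receptors that contain the IL-4 receptor alpha chain (Il4ra), whose Janus kinases phosphorylate the transcription factor STAT6. STAT6 acts with other factors, among them KLF4, at genes such as Arg1, Retnla, Mrc1, Clec10a and Mgl2. LXRα and LXRβ are nuclear receptors that bind oxysterols and, with RXR, switch on genes of cholesterol export.

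Promoter sequences from RefSeq (build GRCm38.p6, 300 bases around each gene's start) matched 5 of the 7 members by symbol: Il4ra, Klf4, Retnla, Mrc1 and Mgl2. They were searched on both strands for TTCNNNNGAA, the palindrome that STAT6 is known to bind, and for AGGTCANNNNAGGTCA, the direct repeat that LXR with RXR is known to bind. The STAT6 letters were in 2284 of 32851 promoters in the table (6.95%), and among the 5 members in that of Retnla alone. The LXR letters were in 5 promoters of the table (0.0152%) and in none of the 5 members'. A match of letters is a description of the sequence and not of binding. The promoters of Retnla, which was detected on no array, and of Mrc1, which was detected on every array, are shown because they are the extremes of the set. Retnla lies at chr16:48842359-48842658 on the + strand, with the STAT6 letters, whose first base is 145 bases before the start, in capitals. Mrc1 lies at chr2:14229164-14229463 on the + strand and has no match.
Retnla: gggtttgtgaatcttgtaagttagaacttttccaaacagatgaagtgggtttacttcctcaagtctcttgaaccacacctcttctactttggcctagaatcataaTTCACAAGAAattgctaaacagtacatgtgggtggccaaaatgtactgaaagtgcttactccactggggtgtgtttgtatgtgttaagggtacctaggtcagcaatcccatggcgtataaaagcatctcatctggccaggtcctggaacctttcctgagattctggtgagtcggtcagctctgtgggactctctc
Mrc1: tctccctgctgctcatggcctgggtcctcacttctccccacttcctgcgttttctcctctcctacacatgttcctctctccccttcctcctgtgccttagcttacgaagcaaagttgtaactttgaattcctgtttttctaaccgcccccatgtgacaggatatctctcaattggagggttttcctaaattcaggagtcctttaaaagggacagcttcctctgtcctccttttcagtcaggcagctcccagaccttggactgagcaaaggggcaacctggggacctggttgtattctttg

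Levels are given as log2 of the background-corrected, quantile-normalized intensity with an offset of 16 added, so that a dark feature sits near 4 and differences of dim features are understated. A feature counts as detected on an array where its deposited detection p-value was under 0.05. Features were kept for testing if detected on at least 4 arrays, which left 14418 genes represented by their brightest feature. The features of 5 members passed (Il4ra, Klf4, Mrc1, Clec10a and Mgl2), and those of Arg1 and Retnla did not. Each array had between 15342 and 17892 features detected, and replicate arrays correlated at 0.964 to 0.995 (Pearson's r across genes, which are not independent).

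Of 10 macrophage markers, 9 were detected on all 36 arrays. Among markers of other cells, Cd3e and Cd8a of T cells, Pax5 of B cells, Xcr1 of dendritic cells and Ms4a2 of mast cells were detected on no array. Other genes of the same lists were: Lck (T cells) was detected on 19 and Cd79b (B cells) on 28. Of the dendritic cell list, Itgax was detected on 13 and Siglech on 6. Of the list for mast cells, basophils and eosinophils, Fcer1a was detected on 9 and Prg2 on 5. The stromal genes Col1a1 and Dcn and the neutrophil gene S100a8 were detected on all 36. The linear levels of 6 stromal genes summed to between 1785 and 2716 on dko arrays, against 511 to 2075 on wt arrays. For 6 neutrophil genes the sums were 199.5 to 1039 on dko arrays, against 153 to 227 on wt arrays. In RNA from a whole culture, fewer cells of a type and less RNA per cell cannot be told apart.

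The arrays came from 6 slides, named by the chip number in the sample titles. All 16 dko arrays and the 8 wt arrays numbered 4 and 5 lay on 4 slides that held both genotypes, while the 12 wt arrays numbered 1 to 3 lay on 2 slides with wt arrays alone. Xist, the transcript of the inactive X chromosome, ranged from 4.19 to 10.64 on the dko arrays. On wt arrays it was 4.23 to 4.41 on the shared slides and 10.88 to 11.40 on the wt-only slides. The wt arrays therefore form sets that differ in slide and in Xist, and the tested members are given below by set.

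Il4ra, the receptor chain through which IL-4 and IL-13 act, was close to background. Its feature was detected on 0 of 16 dko arrays, against 9 of 20 wt arrays. In untreated dko cells it was 4.24, 4.28, 4.49 and 4.41, against 4.58, 4.73, 4.90, 4.63 and 4.72 in untreated wt cells. Every untreated dko array was below every untreated wt array, although the dko signal was not well above background on any of the 4. Il4ra passed the detection filter through wt arrays alone, so neither this separation nor the direction of its genotype differences is counted as a result. The fitted difference between untreated dko and wt cells was -0.36 (SE 0.13) and missed the threshold (limma adjusted p = 0.228). On the shared slides alone the fitted difference was -0.32 (limma adjusted p = 0.728). After crystals plus CD the levels averaged 4.34 ± 0.07 in dko cells (SD, n = 4), against 4.68 ± 0.26 in wt cells (SD, n = 5), a difference of -0.34 (limma adjusted p = 0.276), and on the shared slides alone it was also -0.34 (limma adjusted p = 0.560). Group means were 4.34 to 4.48 in dko cells and 4.49 to 4.71 in wt cells, and no neighbours in the order of the 8 groups differed by more than the larger SD of the pair. The lowest wt mean was that after CD, where no array detected the feature, so the fold is a bound. It was at least 1.04-fold lower than in untreated wt cells, of which 4 of 5 arrays detected it. The fitted difference was -0.23 (limma adjusted p = 0.641). Il4ra passed the filter partly through those untreated wt arrays, so the bound is not counted as a result. Such a bound compares group means, with undetected arrays set no lower than the lowest detected signal, and takes no account of scatter.

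Klf4 encodes a zinc-finger transcription factor that cooperates with STAT6 in macrophages. It had 3 features on the array, detected on 36, 34 and 21 of the 36 arrays, and the first of these was tested. Its tested feature averaged 6.25 ± 0.23 after crystals, 6.14 ± 0.23 untreated, 5.96 ± 0.27 after crystals plus CD and 5.90 ± 0.25 after CD in dko cells (SD, n = 4 each). The wt means were 6.99 ± 0.60 after crystals, 6.74 ± 0.66 untreated, 6.41 ± 0.50 after crystals plus CD and 6.29 ± 0.71 after CD (SD, n = 5 each). The order of the 4 treatments was thus crystals highest and a CD group lowest in both genotypes, but no neighbours in the order of all 8 groups differed by more than the larger SD of the pair.

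Crystal-loaded dko cells had Klf4 levels of 5.97, 6.19, 6.52 and 6.33, against 7.53, 7.28, 7.35, 6.05 and 6.75 in crystal-loaded wt cells. The 3 wt arrays on wt-only slides and number 5 on a shared slide were above every dko array, and number 4, at 6.05, was not. This comparison gave Klf4 its largest difference, -0.74 (95% interval -1.39 to -0.09), which did not pass the threshold (limma adjusted p = 0.287). On the shared slides alone it was -0.15 (limma adjusted p = 0.982). The other 2 Klf4 features differed by -0.31 and -0.19 in the same comparison. CD in crystal-loaded wt cells gave -0.58 (95% interval -1.19 to 0.03, limma adjusted p = 0.717) with the tested feature and -0.25 and -0.03 with the other 2. The 3 features correlated at only 0.41 to 0.61 over the 36 arrays, which share their array-wide signal.

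Arg1 encodes arginase 1, which hydrolyses arginine to ornithine and urea and is induced by IL-4 in mouse macrophages. Each of its 2 features was detected on 3 of 36 arrays, so the gene failed the filter. The feature ILMN_2952275 was 4.30, 4.22, 4.39 and 4.48 in untreated dko cells, against 4.87, 4.93, 5.21, 4.33 and 4.43 in untreated wt cells. The 3 arrays above background were those of untreated wt cells on the wt-only slides. In crystal-loaded wt cells the same feature lay between 4.24 and 4.49 on the wt-only slides and at 4.24 and 4.21 on the shared ones. With crystals it was therefore detected on 0 of 5 wt arrays, and untreated on 3 of 5, which put the bound between the group means at 1.07-fold lower. It was also detected on 0 of 5 wt arrays after CD and 0 of 5 after crystals plus CD, with bounds of 1.07-fold and 1.05-fold. Each of these wt groups overlapped the untreated one. The 3 untreated wt arrays were the only ones of 36 to detect this feature, so the bounds are not counted as a result. The other Arg1 feature, ILMN_2775157, did not repeat this pattern of detection: it was detected in wt cells on 1 untreated array and on 2 arrays after CD, at 4.66 to 4.84. For crystals and for crystals plus CD in wt cells it gave no bound on a lower level. In a fit without the detection filter, which held that feature, Arg1 differed by -0.19 between crystal-loaded and untreated wt cells (limma adjusted p = 0.290).

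Retnla encodes the secreted protein RELMα, a product of IL-4-treated mouse macrophages. Its feature was detected on 0 of 36 arrays. It lay between 4.22 and 4.61 on dko arrays, against 4.19 to 4.55 on wt arrays. The lowest signal of any detected feature was 4.58 to 4.79 depending on the array, so the Retnla values are at the floor and have no order. Without the filter its fitted differences ran from -0.06 to 0.08 over the comparisons between groups.

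**Figure D1:**
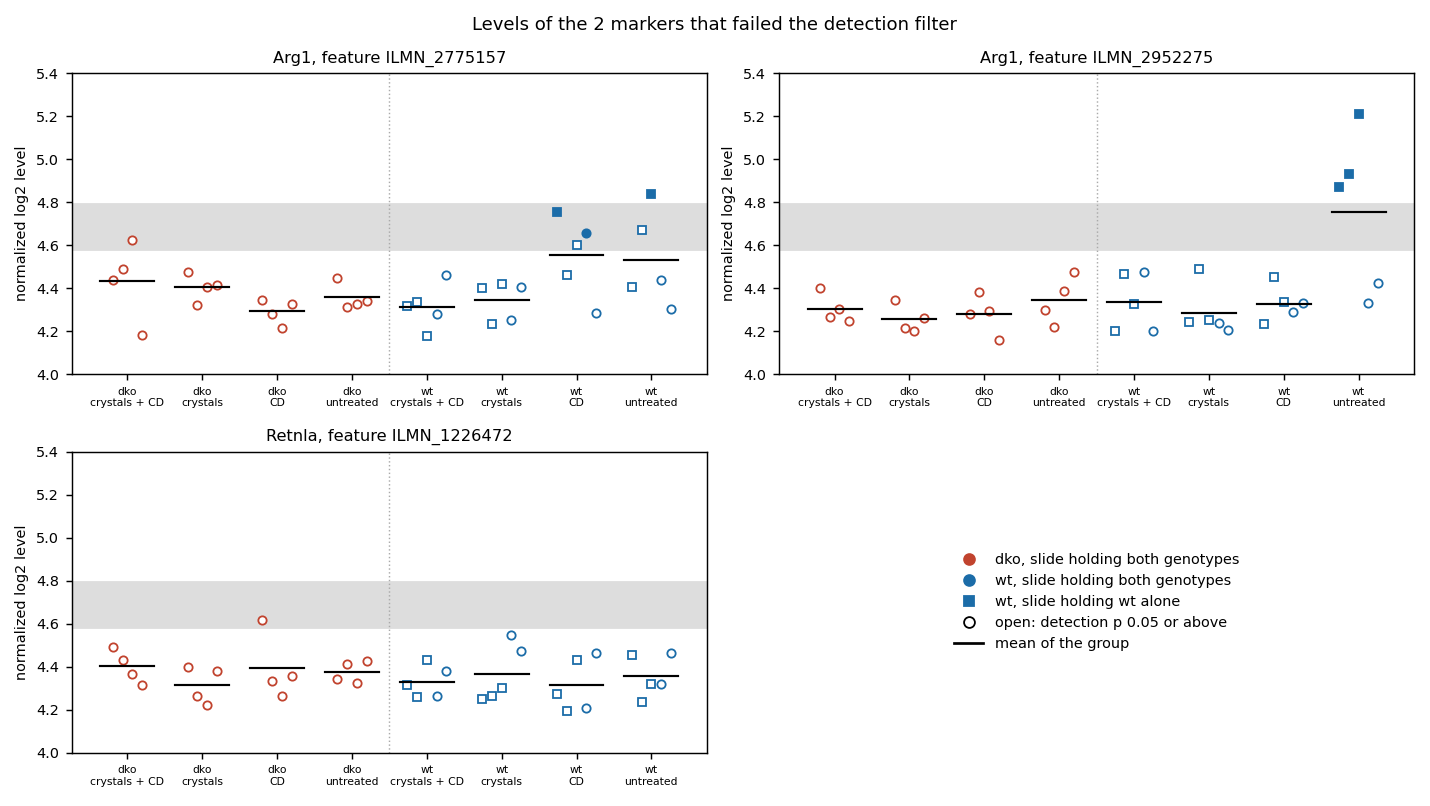
Normalized log2 level (vertical axis) of both Arg1 features and the Retnla feature on each of 36 arrays by group, with open symbols where the detection p-value was 0.05 or above, squares for wt arrays on wt-only slides and lines for group means. The grey band spans the lowest detected signal of the arrays, 4.58 to 4.79. The 3 filled squares of Arg1 feature ILMN_2952275 are untreated wt arrays at 4.87 to 5.21, and no Retnla value is filled.

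Mrc1 encodes the mannose receptor CD206, an endocytic C-type lectin that binds mannose-bearing glycans and is a usual marker of alternative activation. It was detected on every array, between 10.20 and 11.49. In dko cells its level was 10.63, 10.61, 10.54 and 10.71 after crystals plus CD, and 10.83, 10.69, 10.87 and 10.89 after crystals. It was 10.55, 10.48, 10.63 and 10.28 after CD, and 10.81, 10.63, 10.58 and 10.59 in untreated dko cells. All 16 dko arrays thus lay between 10.28 and 10.89. In wt cells it was 11.06, 11.10, 11.19, 10.55 and 10.98 after crystals plus CD and 11.32, 11.16, 11.05, 10.51 and 10.81 after crystals. It was 11.35, 11.49, 11.47, 10.20 and 10.45 after CD and 11.28, 11.48, 10.90, 10.32 and 10.72 in untreated wt cells. The 12 wt arrays on wt-only slides (10.90 to 11.49) were above 7 of the 8 wt arrays on shared slides, whose range was 10.20 to 10.98.

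Neither treatment moved Mrc1 past the threshold. Crystals gave differences of 0.17 in dko cells (95% interval -0.30 to 0.63) and 0.03 in wt cells (95% interval -0.39 to 0.45). CD gave -0.17 in unloaded dko cells (95% interval -0.64 to 0.30) and 0.05 in unloaded wt cells (95% interval -0.36 to 0.47). In crystal-loaded cells CD gave -0.20 in dko (95% interval -0.66 to 0.27) and 0.01 in wt (95% interval -0.41 to 0.43). These intervals leave room for changes of up to about 0.66 in size on the log2 scale. The 4 dko means, 10.49 to 10.82, were all below the 4 wt means, 10.94 to 10.99. Among neighbours in that order, crystal-loaded dko (10.82 ± 0.09) and untreated dko cells (10.65 ± 0.11; SD, n = 4 each) were the pair that differed by more than the larger SD, and the fit gave them a limma adjusted p of 0.996.

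Clec10a, also called MGL1 or CD301a, is a C-type lectin of macrophages that binds galactose and N-acetylgalactosamine. It was detected on 24 of 36 arrays. In crystal-loaded wt cells it was 4.64, 5.54, 4.89, 4.69 and 4.67, detected on 4 of 5 arrays, against 5.99, 6.10, 6.36, 5.07 and 5.07 in untreated wt cells, detected on 5 of 5. The crystal arrays were below every untreated one apart from array 2 at 5.54, which lay above the 2 untreated arrays on shared slides. Set against the untreated array of the same number, all 5 were lower, by differences of -1.47 to -0.38. The fitted difference was -0.83 (SE 0.29, 95% interval -1.42 to -0.25), a 1.78-fold lower level, and passed the threshold narrowly (limma adjusted p = 0.0494). It was -1.13 on the wt-only slides (limma adjusted p = 0.0165) and -0.39 on the shared slides, with 2 wt arrays a group (limma adjusted p = 0.704). Within the 3 slides that held both wt groups the difference was -0.78, -0.38 and -1.59.

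After crystals plus CD, Clec10a was 5.21, 5.07, 4.55, 4.70 and 4.45 in wt cells, detected on 3 of 5 arrays. Of these arrays, 3 lay below the whole untreated wt range and the other 2, at 5.21 and 5.07, were level with its lowest arrays. The difference was -0.92 (SE 0.29, 95% interval -1.51 to -0.33), a 1.89-fold lower level (limma adjusted p = 0.0243), and was -1.21 on the wt-only slides (limma adjusted p = 0.0136) and -0.49 on the shared slides (limma adjusted p = 0.176). Within the 2 slides that held both groups it was -1.05 and -0.62. Leaving out the arrays numbered 3 ended both calls, with differences of -0.67 (limma adjusted p = 0.257) and -0.70 (limma adjusted p = 0.195). Leaving out number 1 ended the call for crystals alone at -0.70 (limma adjusted p = 0.193). Leaving out any of numbers 6 to 9, all dko, kept -0.83 but gave limma adjusted p-values of 0.0653 to 0.0730.

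CD without crystals left Clec10a in wt cells at 6.25, 6.48, 5.48, 4.71 and 4.34, detected on 4 of 5 arrays. These values spanned a wider range than the untreated wt values, and the difference was -0.26 (95% interval -0.85 to 0.32, limma adjusted p = 0.919). In crystal-loaded wt cells the difference with CD was -0.09 (95% interval -0.68 to 0.50).

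In dko cells the Clec10a means were also lower with crystals or CD, and no difference passed the threshold. It was 4.45, 4.57, 4.42 and 4.30 after crystals plus CD, detected on none of the 4 arrays, against 5.48, 5.03, 5.09 and 5.15 in untreated dko cells, detected on all 4. The groups did not overlap, and Clec10a was at least 1.42-fold lower after crystals plus CD, with a fitted difference of -0.76 (limma adjusted p = 0.162). Crystals alone gave 4.34, 4.63, 4.81 and 4.90, a difference of -0.52 (limma adjusted p = 0.803). CD alone gave 4.87, 4.46, 4.49 and 4.55, a difference of -0.60 (limma adjusted p = 0.468). Both of these dko groups also lay wholly below the untreated dko arrays. All of these separations share the same 4 untreated dko arrays. How many of all features separate in this way was not counted, so the separations are not counted as a result. The fit pools the spread of all 36 arrays, and the SDs were 0.11 to 0.25 in dko groups, against 0.33 to 0.93 in wt groups. Fitted on the shared slides alone, the differences were -0.60 for CD (limma adjusted p = 0.0152) and -0.76 for crystals plus CD (limma adjusted p = 0.000928). The difference between genotypes in the crystal effect, dko minus wt, was 0.32 (SE 0.43) and did not pass.

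The order of the 8 Clec10a group means began with untreated wt (5.72 ± 0.61), CD-treated wt (5.45 ± 0.93) and untreated dko (5.19 ± 0.20). It went on with crystal-loaded wt (4.89 ± 0.38), wt with crystals plus CD (4.80 ± 0.33), crystal-loaded dko (4.67 ± 0.25), CD-treated dko (4.59 ± 0.19) and dko with crystals plus CD (4.43 ± 0.11; SD, n = 4 for dko and 5 for wt). No neighbours in that order differed by more than the larger SD of the pair.

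Mgl2, or CD301b, is a paralogue of Clec10a, like it on chromosome 11, and also binds galactose-type sugars. Its tested feature, ILMN_2707099, was detected on 30 of 36 arrays and its other feature, ILMN_2707319, on 20. The tested feature was 4.83, 4.89, 4.88 and 4.43 in CD-treated dko cells, against 5.26, 4.94, 5.07 and 5.49 in untreated dko cells. The groups did not overlap, and the difference was -0.44 (SE 0.20, limma adjusted p = 0.346). In the other feature these groups overlapped, with a difference of -0.28 (limma adjusted p = 0.810 over all features). How many of all features separate in this way was not counted. For the tested feature, crystals plus CD gave 5.08, 4.77, 4.83 and 4.31 in dko cells. The difference from untreated dko cells was -0.44 (limma adjusted p = 0.197), although the array at 5.08 overlapped the untreated ones.

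The pair of Mgl2 features did not move alike in wt cells. For crystals against untreated, the tested feature gave -0.06 (95% interval -0.42 to 0.31). The second gave -0.67 (limma adjusted p = 0.0795 over all features), with 4.65, 5.15, 4.67, 4.27 and 4.39 in crystal-loaded wt cells, against 5.61, 6.04, 5.23, 4.88 and 4.73 in untreated wt cells. With 4 of 4 untreated and none of the 4 crystal-loaded dko arrays detecting it, the second feature was at least 1.28-fold lower in crystal-loaded dko cells. After crystals plus CD it was at least 1.26-fold lower than in untreated dko cells, again detected on none of 4 arrays against 4 of 4. Neither fitted difference of the second feature passed: -0.49 with crystals (limma adjusted p = 0.778 over all features) and -0.64 with crystals plus CD (limma adjusted p = 0.196). The tested feature gave -0.39 with crystals in dko cells (limma adjusted p = 0.645), and its groups overlapped. The features correlated at 0.51 over the 36 arrays. Whether they report the same transcripts was not tested, and the features' sequences were not used here.

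**Figure D2:**
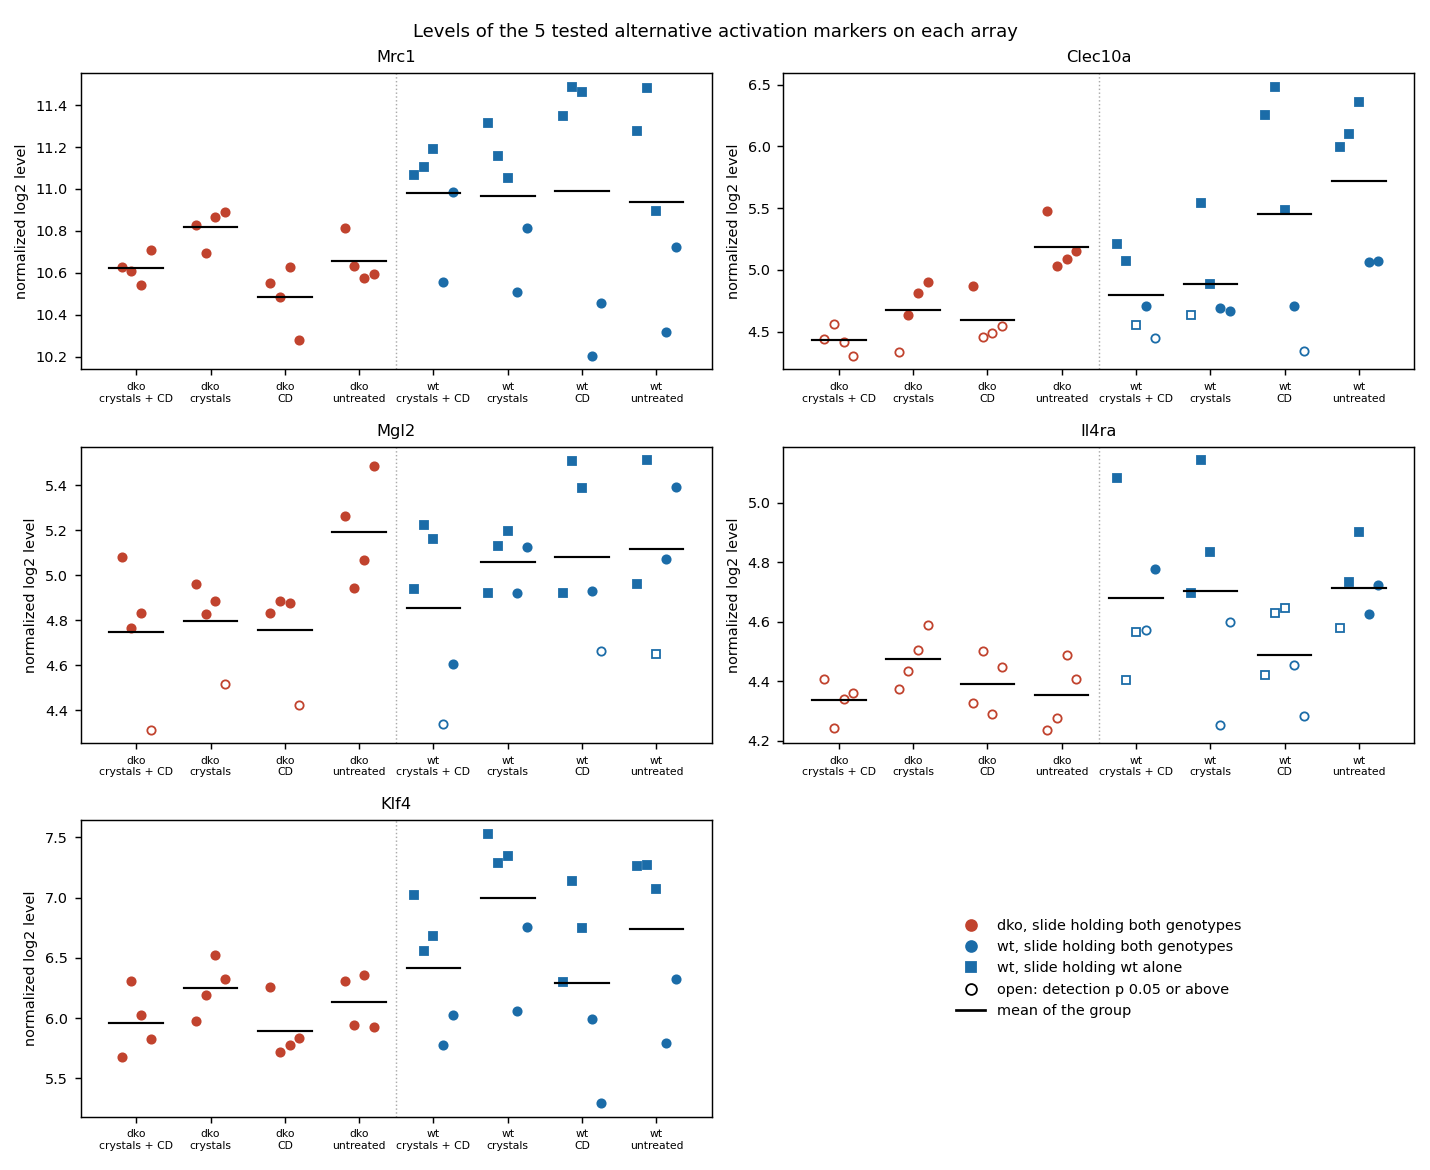
Normalized log2 level (vertical axis) of the 5 tested members on each of 36 arrays in 8 groups, dko left of wt. Circles are arrays on slides with both genotypes, squares wt arrays on wt-only slides, open symbols arrays where the feature was not detected, and lines group means. Clec10a averages 4.43 in dko cells and 4.80 in wt cells with crystals plus CD, against 5.19 and 5.72 in their untreated groups, while the Mrc1 means stay within 10.49 to 10.99.

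Over the 17 comparisons and the 5 tested members, 85 tests were made. Of these, 2 passed the threshold (limma adjusted p under 0.05, Benjamini-Hochberg over all 14418 genes) and 10 had an unadjusted p under 0.05. Among all genes 0% to 16.2% passed, depending on the comparison, and 247 to 3911 of 14418 had an unadjusted p under 0.05. Whether the members' counts differ from those of all genes was not tested. Both that passed were of Clec10a, in wt cells, and shared the untreated wt arrays.

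Crystals alone changed 0 of the 5 tested members in dko cells, beside 0.416% of all genes tested, with 3 members higher and 2 lower in mean. The higher ones include Il4ra, which no dko array detected, so its direction is not counted as a result. In wt cells crystals changed 1 of 5, Clec10a, beside 14% of all genes. The median difference of the 5 was -0.01 there, as was that of all genes. Around the members, Bhlhe40, a transcriptional repressor linked to macrophage polarization, rose to 10.66 ± 0.39 in crystal-loaded wt cells, against 7.95 ± 0.73 in untreated wt cells (SD, n = 5 each). That difference of 2.70 had a limma adjusted p of 1.74e-07. The zinc-finger factor Egr2 rose by 1.73 and the PPARγ coactivator Ppargc1b by 1.07, making 3 of 12 tested regulators higher and none lower. Of 13 genes of IL-4 signalling, Irs2, the insulin receptor substrate that the IL-4 receptor engages, rose by 1.01 and Ptpn6, the phosphatase SHP-1, fell by 0.89. Among 11 other targets of alternative activation, the scavenger receptor Stab1 fell by 0.55 (limma adjusted p = 0.0489) and none rose.

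Of the 9 tested genes of arginine and polyamine metabolism, 3 rose in crystal-loaded wt cells and none fell, beside the 14% of all genes. Argininosuccinate synthase (Ass1), which acts in arginine synthesis, reached 6.90 ± 0.51, against 5.47 ± 0.28 in untreated wt cells (SD, n = 5 each), a difference of 1.43. The other 2 were polyamine genes, spermidine synthase (Srm), which rose by 1.15, and the antizyme inhibitor Azin1, which rose by 0.83. Of 8 C-type lectin receptors other than the members, Clec4e, the receptor Mincle, rose by 2.83 and none fell, so the crystal-loaded wt cells combined a higher Clec4e with a lower Clec10a. None of 10 classical activation genes passed the threshold with crystals alone in wt cells, and the median of those 10 was -0.16.

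CD alone changed 0 of the 5 members in dko cells, beside 1.71% of all genes, and 0 of 5 in wt cells, beside 0.895%. The mean was lower for 4 of the 5 in each genotype, with medians of -0.24 in dko cells and -0.23 in wt cells, where the medians of all genes were -0.03 and -0.01. In dko cells the member not lower was Il4ra, which no dko array detected, so its direction is not counted as a result. Some genes of the classical activation list rose with CD. The costimulatory receptor Cd40 reached 10.64 ± 1.45 in CD-treated dko cells, against 7.53 ± 0.39 in untreated dko cells (SD, n = 4 each), and 10.02 ± 1.18 in CD-treated wt cells, against 7.40 ± 0.10 in untreated wt cells (SD, n = 5 each). Of 10 tested genes of that list, 3 rose in dko cells (Tnf, Cxcl10 and Cd40, by 3.46, 3.60 and 3.11) and 2 in wt cells (Cxcl10 and Cd40, by 2.69 and 2.62). Il13ra1, which pairs with the IL-4 receptor alpha chain, rose by 0.93 in dko cells and 0.76 in wt cells and was the only gene of the IL-4 signalling list past the threshold in either. Tissue transglutaminase (Tgm2), another target of alternative activation, fell by 0.72 in dko cells and by 0.79 in wt cells.

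In crystal-loaded cells CD changed 0 of the 5 members in dko cells, beside 1.8% of all genes, and 0 of 5 in wt cells, beside 0%. For wt cells no gene passed with limma in that comparison, and 1042 of 14418 had an unadjusted p under 0.05. All 5 members had a lower mean with CD in loaded dko cells, from -0.05 for Mgl2 to -0.29 for Klf4. Il4ra was detected on no dko array, so its direction is not counted as a result. Clec10a was detected on none of the dko arrays with crystals plus CD. In the same dko comparison 5 of 10 classical activation genes rose, among them Irf1 by 1.75. The arginine transporter Slc7a2 rose by 1.52 there and Ass1 also rose, 2 of the 9 arginine and polyamine genes.

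Crystals plus CD against untreated changed 0 of 5 members in dko cells, beside 8.09% of all genes, and 1 of 5 in wt cells (Clec10a), beside 16.2%. In wt cells 5 of 9 arginine and polyamine genes rose and none fell. Arginase 2 (Arg2), the mitochondrial arginase, reached 7.20 ± 0.23 with crystals plus CD in wt cells, against 5.99 ± 0.52 untreated (SD, n = 5 each), a difference of 1.21 with a limma adjusted p of 0.0182, while Arg1 was detected on none of the 5 arrays with crystals plus CD. In dko cells Slc7a2 rose by 2.01 and Ass1 by 1.92, and Oat, which uses ornithine, fell by 0.36. The IL-4 signalling list had 4 of 13 genes higher in dko cells (Il13ra1, Il2rg, Jak2 and Socs3) and 3 higher in wt cells (Il13ra1, Il2rg and Irs2), with none lower in either. Stat6 itself averaged 7.58 to 7.79 in dko groups and 7.71 to 7.88 in wt groups and passed the threshold nowhere. Clec4e rose by 3.75 in dko cells and 4.14 in wt cells.

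**Figure D3:**
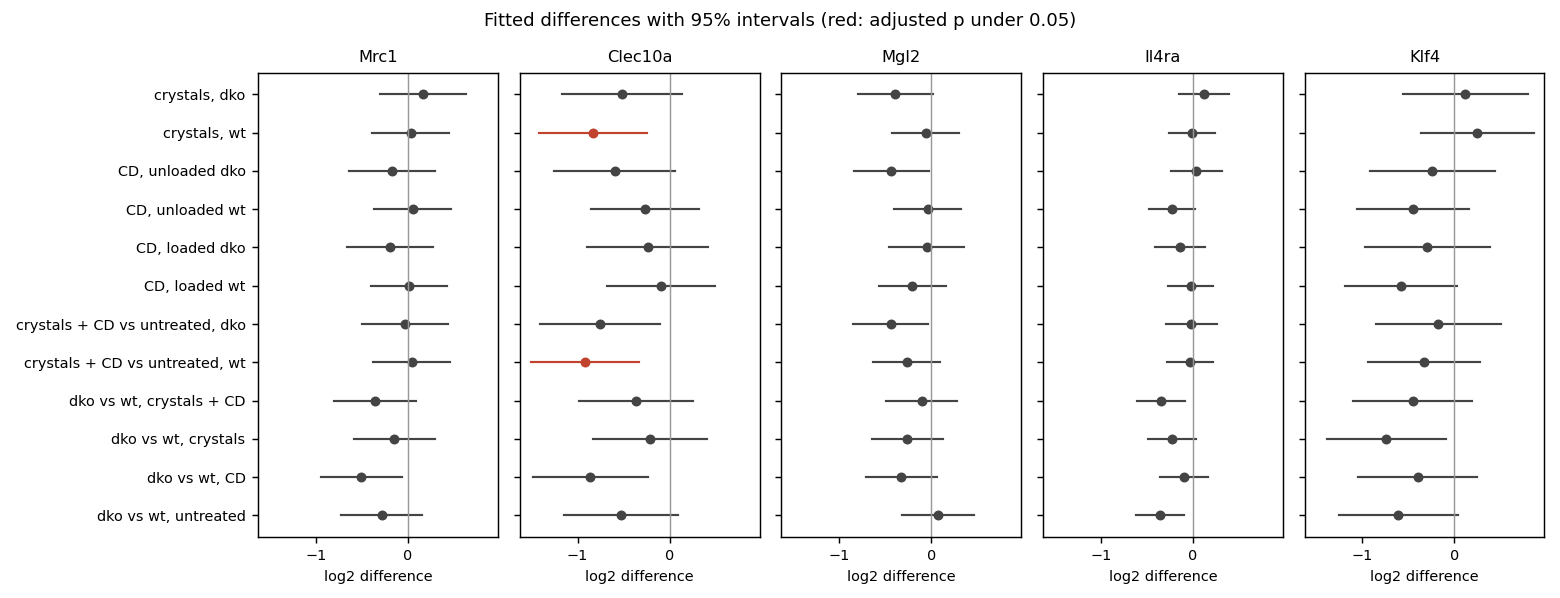
Fitted log2 differences (horizontal axis) of the 5 tested members in 12 comparisons between groups, dko above wt, with 95% intervals as bars. The 2 red points, both Clec10a in wt cells at -0.83 and -0.92, are those with a limma adjusted p under 0.05.

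The absence of LXRα and LXRβ changed no member past the threshold: 0 of 5 in untreated cells beside 0.208% of all genes, 0 of 5 after crystals beside 0.375%, 0 of 5 after CD beside 0.368% and 0 of 5 after crystals plus CD beside 0.451%. Il4ra passed the detection filter through wt arrays alone, so the direction of its difference is not counted as a result. After CD, dko minus wt was -0.86 for Clec10a (limma adjusted p = 0.226), -0.51 for Mrc1 (limma adjusted p = 0.337) and -0.40 for Klf4 (limma adjusted p = 0.643). Without the wt arrays numbered 4, the Mrc1 difference was -0.70 and passed (limma adjusted p = 0.0440). Without those numbered 5, the Clec10a difference was -1.14 and passed (limma adjusted p = 0.0330).

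The kind of slide moved with these differences. Mrc1 averaged 10.65 ± 0.16 on the 16 dko arrays, against 10.57 ± 0.26 on the 8 wt arrays of the same slides and 11.24 ± 0.19 on the 12 wt arrays of wt-only slides (SD). Klf4 averaged 6.06 on dko arrays, against 6.00 on wt arrays of shared slides and 7.02 on wt-only slides. For Clec10a the 3 means were 4.72 on dko arrays, against 4.71 and 5.55. On shared slides alone, dko minus wt for Mrc1 was 0.13 untreated, 0.16 after crystals, 0.16 after CD and -0.15 after crystals plus CD, and no member passed. For Clec10a it was 0.12 untreated, -0.01 after crystals, 0.07 after CD and -0.14 after crystals plus CD. For Klf4 it was 0.08 untreated, -0.15 after crystals, 0.25 after CD and 0.06 after crystals plus CD. On these slides the dko mean was thus lower after crystals plus CD for Mrc1, after crystals for Klf4, and after crystals and after crystals plus CD for Clec10a, and higher in the other treatments. Il4ra averaged 4.39 on dko arrays, against 4.54 on wt arrays of shared slides, where 3 of 8 detected it, and 4.72 on wt-only slides. On shared slides its dko minus wt difference was -0.32 untreated, 0.05 after crystals, 0.02 after CD and -0.34 after crystals plus CD. Mgl2 averaged 4.87 on dko arrays, against 4.88 and 5.13 on the same sets of wt arrays. The summed stromal level also differed between the sets, with medians of 2214 on dko arrays, against 1407 on wt arrays of shared slides and 724 on wt-only slides. The part of slide, Xist level and stromal level in the members' differences was not tested, and among wt arrays the 3 cannot be told apart.

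**Figure D4:**
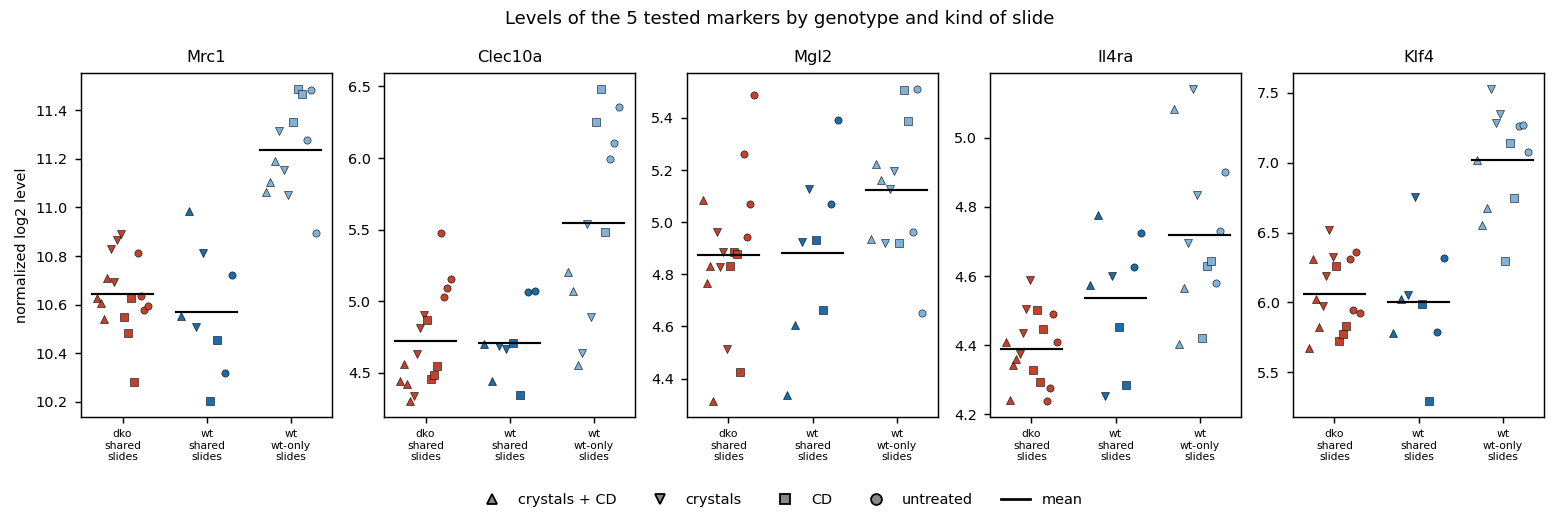
Normalized log2 level (vertical axis) of the 5 tested members on all 36 arrays, split into dko arrays, wt arrays on slides with both genotypes and wt arrays on wt-only slides, with symbols for treatment and lines for means. For Mrc1, Klf4 and Clec10a the dko means (10.65, 6.06, 4.72) lie beside those of wt arrays on shared slides (10.57, 6.00, 4.71) and below those on wt-only slides (11.24, 7.02, 5.55).

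No member passed a test of a difference between effects. The genotype difference of the crystal effect had 0 of 5 members beside 0.0416% of all genes, that of the CD effect 0 of 5 beside 0% in unloaded cells and 0 of 5 beside 0% in loaded cells. The interaction of crystals with CD had 0 of 5 members beside 0% in dko cells and 0 of 5 beside 0.0486% in wt cells. Where no gene passed with limma, an unadjusted p under 0.05 was found for 247 genes (genotype and CD effect, unloaded), 316 (loaded) and 265 (crystals by CD, dko). The widest of these intervals was that of Klf4 in the interaction of crystals with CD in dko cells, -1.02 to 0.91. For Clec10a the genotype difference of the CD effect in unloaded cells had an interval of -1.21 to 0.55.

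Over the 36 arrays, which share groups, slides and normalization, the members' levels correlated most between Mrc1 and Klf4 (Pearson's r = 0.78) and least between Mgl2 and Il4ra (0.17). The 3 genes whose levels were most like Clec10a's were Prune2 (0.91), Tpbgl (0.90) and Il16 (0.89). Those most like Mrc1 were Trim30a, Pstpip1 and Chn2, each at 0.81. For Klf4 they were Vhl (0.85), Apoc1 (0.84) and Dicer1 (0.84), for Mgl2 Picalm (0.71), Ly86 (0.69) and Zfp78 (0.68), and for Il4ra Ddx60 (0.71), Per2 (0.69) and Tubb6 (0.69). These genes were picked from all 14418 tested genes, of which only 5 are members, so the absence of members among them is not a result. Every value has n = 36 arrays.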

How the data were processed

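TRIzol was used for RNA and biotin-labelled cRNA was hybridised, per the labels' protocols. For each feature and array the deposited table holds an intensity and a detection p-value. The intensity was not normalized, as far as the values show: array medians ran from 83.5 to 128. The deposited series matrix held log2 of the same intensity, within 5.57e-05. Partek is named in the submitters' processing notes, with no role, and export settings are not given there.

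Features were named by symbol (27744), by synonym (8046) or kept under the array's name (9491) through RefSeq tables. Matches by symbol or synonym on another chromosome were refused for 29. A line with no name (1) was left out. Background correction with normexp, the offset of 16 and quantile normalization used neqc of limma 3.58.1 in R 4.3.3. The 8 groups were fitted together with lmFit and eBayes, two-sided, without a block (28 residual and 3.94 prior degrees of freedom), and p-values were adjusted by Benjamini-Hochberg. Intervals are 95% from the same fit. The fit was tested on simulated data.

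The members and gene lists were chosen with earlier results of these data known. All members are named, list genes past the threshold up to 6 per comparison and list, and the 3 genes most correlated with each member; some list genes are not reported here. The arrays of a group differed from each other by at least 0.239 (root mean square, log2), so no array's values were deposited under a second name within a group. The number of arrays limits the precision. Alternatives covered scaling, background, values, filter, feature choice, slide, replicate block and leaving out arrays.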

Additional observations from a re-analysis of the deposited data

Results flagged for a closer look

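Of 40 groups of member levels looked at for an array far from the others of its group, 2 had one, and chance alone marks about 1 group in 20 by this measure. In crystal-loaded wt cells, array 2 had a Clec10a level of 5.54, while the other 4 lay between 4.64 and 4.89. In CD-treated dko cells, array 9 had an Mgl2 level of 4.43, while the other 3 lay between 4.83 and 4.89. The gap took 0.725 of the group's range for Clec10a and 0.883 for Mgl2.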

How the results depend on the processing

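Over 19 alternatives, the lower Clec10a in wt cells kept its direction: it ranged from -1.13 to -0.26 with crystals and passed in 7, and from -1.21 to -0.24 with crystals plus CD and passed in 14. The number of members past the threshold with crystals in wt cells, 1 in the fit described, was 0 with median scaling (Clec10a adjusted p = 0.138), no background correction (0.0642), series matrix values (1), no detection filter (0.102), the mean of a gene's features (0.0501) and replicates 4 to 9 (0.704). With crystals plus CD in wt cells it was 0 with median scaling (0.0617), series matrix values (1), no detection filter (0.0521) and replicates 4 to 9 (0.176). Replicates 4 to 9 gave 1 (Clec10a) for CD in unloaded dko cells and for crystals plus CD in dko cells. Leaving out each replicate number in turn gave 0 to 1 for crystals in wt, for crystals plus CD in wt and for dko against wt after CD. Among single members, 1401 values kept direction and side of the threshold, 95 that had not passed changed sign, 5 came to pass, 17 ceased to, and none that passed turned. Over all genes, 2018 calls for crystals in wt became 498 with median scaling, 129 with series matrix values, 77 with replicates 4 to 9 and 1221 and 1143 without replicates 1 and 3, and 2337 for crystals plus CD in wt became 560, 136 and 636 under the first 3 of these. Median scaling called 317 of 498 genes higher for crystals in wt, against 993 of 2018. Lowest and highest counts over the alternatives were 3 and 204 for crystals in dko (60 in the fit described), 9 and 235 for CD in unloaded wt (129), 0 and 473 in unloaded dko (247), 0 and 48 in loaded wt (0) and 0 and 466 in loaded dko (260). For crystals plus CD in dko the lowest was 44 (1166). Between genotypes they were 1 and 96 untreated (30), 5 and 170 after crystals (54), 1 and 214 after CD (53) and 2 and 117 after both (65). For the interactions they were at most 14. The cause was not tested. Signal near background limits Clec10a, Mgl2 and Il4ra.

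Same-numbered arrays did not deviate together throughout: over 0.1 in 27 of 30 wt pairs (r from -0.0354 to 0.72) and 10 of 24 dko pairs (-0.72 to 0.598). Differently numbered arrays were over 0.1 in 30 of 120 wt pairs and 38 of 72 dko pairs. Median r in wt was 0.534 for the same number and -0.227 for different numbers, and in dko -0.395 and 0.335. The wt arrays thus went together by number, which goes with kind of slide there, and the dko arrays did not. The fit described has no block for number. With the replicate block, 1 member (Clec10a, adjusted p = 0.0350) passed for crystals plus CD in dko cells, and Clec10a passed as before for crystals (0.00552) and crystals plus CD (0.00205) in wt cells. The comparisons restricted to wt-only slides and the fit of every feature were added after the data had been seen.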
